A study of Homo sapiens with 4 samples.

Results

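The 47 genes described here encode Wnt ligands, their receptors and inhibitors, and the proteins of the planar polarity pathway. They were chosen by gene symbol, with earlier results of these data known. Each is read from the probe sets whose annotated symbol is exactly that gene. Of the 47, 44 had such a probe set, among 19775 genes on the array, and 33 were bright enough to be kept, among 13137 genes kept in all. Where several probe sets measured a gene, the brightest on average stood for it, and a gene was kept if any of its 4 readings reached 0.38, the median of all readings. WNT3, WNT3A and FZD8 had no probe set with their symbol alone and were not analysed here.

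Messenger RNA was measured in SCP2, a bone-colonising subline of the human breast cancer line MDA-MB-231. The 4 groups were vector control cells, vector control cells treated with TGF-beta, cells labelled as overexpressing DLC1, and those cells treated with TGF-beta. All groups are the same line, and the controls carry a vector. The sources used here do not give the promoter of the construct, whether the cells were a clone or a pool, or the dose and time of TGF-beta. Each group is 1 array, so no difference below has a replicate check, and precision is limited by the number of arrays. DLC1 encodes a GTPase-activating protein, and TGF-beta is a cytokine released from bone matrix; the title of the study places it in bone metastasis.

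Wnt proteins are secreted glycoproteins that bind Frizzled receptors together with co-receptors. With LRP5 or LRP6 the signal passes through Dishevelled to the axin complex, which otherwise marks beta-catenin for destruction. With ROR1, ROR2 or RYK, and with the VANGL, PRICKLE and CELSR proteins, it acts on polarity and the cytoskeleton instead. WNT5A and WNT5B are ligands usually assigned to this second branch.

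Each difference is given on the log2 scale of the deposited intensities, which are in arbitrary units, and a gene is said to have risen or fallen if it reached 2-fold, which is 1 on that scale. Median intensities were 0.38 to 0.39 on the 4 arrays. The brightest DLC1 probe set read 1.77 in the control array and 3.38 in the DLC1-labelled array, and 2.51 and 3.64 with TGF-beta, while another, 224822_at, was lower in both DLC1-labelled arrays, by 0.31 and 0.51. The label was therefore not settled by the transcript, and the arrays are called DLC1-labelled here, and those of vector cells control arrays. All 5 markers of mesenchymal breast cancer lines, such as VIM and AXL, read between 44.7 and 205 on every array. The 6 luminal markers summed to between 9.88 and 12.8 per array, with PGR, FOXA1 and CDH1 under the filter. EPCAM read 5.76 to 7.45, GATA3 3.0 to 4.59 and ESR1 0.39 to 0.46, so 3 of the 6 were kept. The 3 measured leukocyte markers summed to between 1.58 and 2.15 and the 3 endothelial markers to between 1.23 and 1.80. RNA quality was read from the control sets of beta-actin and GAPDH. The 5' end of beta-actin read far below its 3' end on every array, with a log2 gap of -3.26 to -2.83. The gap of GAPDH was -0.39 to -0.35. The beta-actin gap moved by 0.43 with TGF-beta in the control arrays and by 0.08 in the DLC1-labelled arrays. Between DLC1 and vector it moved by 0.15 and -0.20 without and with TGF-beta. That of GAPDH moved by 0.04 or less in size. The part of these differences in the results below was not tested.

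Of the 33 kept members, 6 passed 2-fold in at least 1 of the 4 comparisons: PRICKLE1, PRICKLE2, CELSR3, WNT5A, WNT5B and NDP. That is 18.2% of them, beside 6.35% of all genes kept. The members were chosen with earlier results of these data known, and NDP was kept only through the untreated control array. The 2 shares are therefore a description and not a test of the group. The other 27 stayed within 2-fold throughout. For 19 members that had several kept probe sets, the sets of a gene spread over a median range of 0.20 in the difference with TGF-beta in the control arrays, 0.11 in the DLC1-labelled arrays, 0.20 between DLC1 and vector without TGF-beta and 0.13 with it. The widest ranges in these comparisons, 1.08, 0.80, 0.95 and 0.995, were those of PRICKLE1, which has a dim set, and the sets of 6, 6, 5 and 2 of the 19 members differed in sign. There are no replicate arrays to set beside these ranges.

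**Figure D1:**
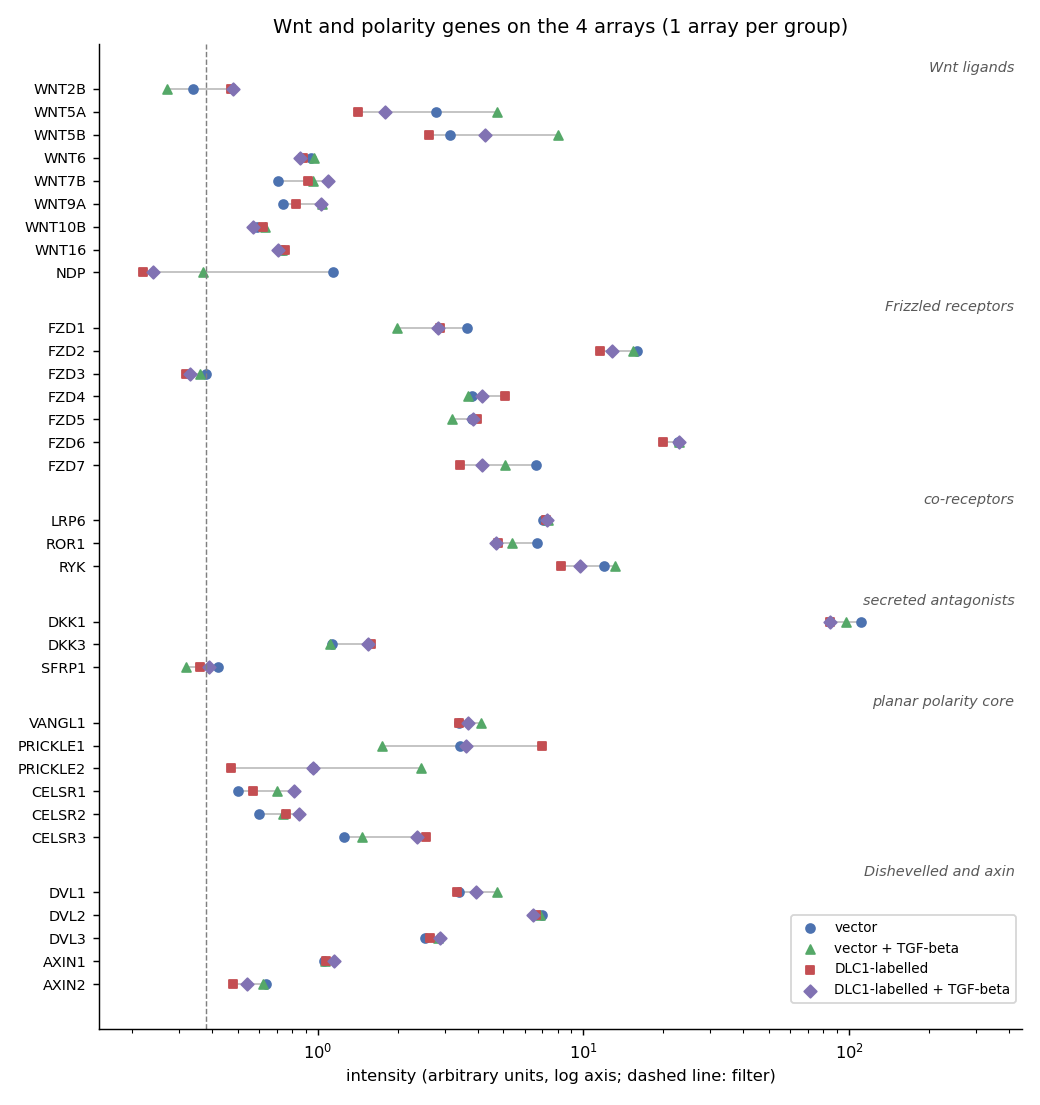
Intensity of the 33 kept members on the 4 arrays, on a log axis in arbitrary units, 1 point per array, grouped by role; the dashed line is the filter at 0.38 and the grey line joins the lowest and highest reading of a gene. The points of PRICKLE1, PRICKLE2, WNT5A, WNT5B and NDP spread widely, and those of LRP6, DVL2, AXIN1 and WNT16 nearly coincide; levels of different genes come from different probes and are not comparable.

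The planar polarity genes parted by member, and the PRICKLE paralogs went opposite ways in every comparison. PRICKLE proteins are cytoplasmic LIM-domain partners of VANGL. PRICKLE1 read 3.43 in the control array, 1.74 in the control array with TGF-beta, 6.96 in the DLC1-labelled array and 3.62 in the DLC1-labelled array with TGF-beta. The DLC1-labelled array without TGF-beta was the highest and the control array with TGF-beta the lowest. PRICKLE1 rose by 1.02 in the DLC1-labelled arrays without TGF-beta and by 1.06 with it. With TGF-beta it gave -0.98 in the control arrays and -0.94 in the DLC1-labelled arrays, both just short of 2-fold.

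Other probe sets of PRICKLE1 moved alike, except for a dim one. Between DLC1 and vector, 226069_at gave 0.71 in untreated cells and 1.06 in treated ones, and 230708_at gave 0.95 and 1.13. With TGF-beta, 226069_at gave -1.29 in the control arrays and -0.95 in the DLC1-labelled arrays, and 230708_at gave -1.07 and -0.88. The fourth, 232811_x_at, read between 0.50 and 0.61 on every array. With the mean of all 4 sets in place of the brightest, the PRICKLE1 differences between DLC1 and vector were 0.69 and 0.85 and no longer passed 2-fold.

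PRICKLE2 has a single probe set, which read 0.96 in the control array, 2.45 with TGF-beta, 0.47 in the DLC1-labelled array and 0.96 in that group with TGF-beta. Here the control array with TGF-beta was the highest and the untreated DLC1-labelled array the lowest, the reverse of PRICKLE1. PRICKLE2 rose with TGF-beta by 1.35 in the control arrays and by 1.03 in the DLC1-labelled arrays, and it fell by 1.03 and 1.35 in the DLC1-labelled arrays without and with TGF-beta. It was the only one of the 33 kept members past 2-fold in all 4 comparisons, although centring the arrays on housekeeping genes brought the difference without TGF-beta to -0.95. The values are rounded to 2 decimals, which allows -1.05 to -1.01 for that difference.

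Because the PRICKLE genes went opposite ways, the sequences around their annotated starts are shown, each from 250 bases before to 50 bases after a start, on the gene's own strand and from RefSeq, build GRCh38.p14. Capitals mark every CG pair. The arrays do not tell which start was used.
PRICKLE1 start 1 (chr12:42483566-42483865, minus strand): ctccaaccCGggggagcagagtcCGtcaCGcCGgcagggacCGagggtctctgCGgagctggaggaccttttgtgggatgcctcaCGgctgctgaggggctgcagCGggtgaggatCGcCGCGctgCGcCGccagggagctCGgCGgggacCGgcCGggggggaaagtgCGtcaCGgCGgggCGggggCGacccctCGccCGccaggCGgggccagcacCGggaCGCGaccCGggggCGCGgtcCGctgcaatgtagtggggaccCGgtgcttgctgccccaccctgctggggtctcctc
PRICKLE2 start 1 (chr3:64268124-64268423, minus strand): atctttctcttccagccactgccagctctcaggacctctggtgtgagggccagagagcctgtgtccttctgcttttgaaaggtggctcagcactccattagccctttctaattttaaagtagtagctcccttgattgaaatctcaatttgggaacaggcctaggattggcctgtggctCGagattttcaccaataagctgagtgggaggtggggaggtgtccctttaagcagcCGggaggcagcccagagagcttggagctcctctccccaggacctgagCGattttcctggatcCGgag
PRICKLE2 start 2 (chr3:64225417-64225716, minus strand): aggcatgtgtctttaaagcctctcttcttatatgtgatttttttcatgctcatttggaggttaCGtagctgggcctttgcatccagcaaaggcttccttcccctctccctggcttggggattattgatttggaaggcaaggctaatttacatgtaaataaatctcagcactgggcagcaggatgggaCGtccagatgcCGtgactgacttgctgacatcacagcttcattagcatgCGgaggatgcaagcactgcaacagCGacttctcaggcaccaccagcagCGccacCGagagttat
The PRICKLE1 window holds 33 CG pairs and is 75.3% G or C. The PRICKLE2 windows hold 4 and 7 CG pairs and are 53.3% and 49.0% G or C. Over all 35116 windows of the table, 96% hold a CG pair and the median is 14 pairs, with a 10th percentile of 1 and a 90th of 37. The windows of members, 38 windows of 33 members, ran from 4 to 58 pairs with a median of 31.5, so a PRICKLE2 window is at the low end of the family. The letters CAGAC, the core of the SMAD-binding box, were searched on both strands and occur in none of these 3 windows; 45.3% of all windows and 19 of the 38 windows of members hold them. The letters CTTTGA, of the TCF site, and TGANTCA, of the AP-1 site, are also absent from the 3 windows, and 12.9% and 7.71% of all windows hold them. These are matches of letters in short windows and not measured binding.

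The CELSR genes encode the large cadherins of the polarity complex, and CELSR3 was the member of this trio past 2-fold. CELSR3 read 1.25 and 1.47 in the control arrays without and with TGF-beta, and 2.56 and 2.37 in the DLC1-labelled arrays. Both DLC1-labelled arrays lay above both control arrays. CELSR3 rose by 1.03 in untreated cells and gave 0.69 in treated ones, and its other set, 205165_at, gave 0.88 and 0.61. The mean of its sets gave 0.96 without TGF-beta, short of 2-fold. CELSR1 gave 0.19 and 0.21, and CELSR2 0.34 and 0.20, in untreated and treated cells. With TGF-beta, CELSR1 gave 0.49 in the control arrays and 0.51 in the DLC1-labelled arrays.

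VANGL1 encodes a membrane protein that binds PRICKLE. Its set used here read 3.41, 4.10, 3.40 and 3.66 in the vector, vector with TGF-beta, DLC1 and DLC1 with TGF-beta arrays. Its other 3 sets gave between -0.55 and -0.33 between DLC1 and vector without TGF-beta, where the set used gave 0.00. With TGF-beta they gave 0.00 to 0.31 in the control arrays, where the set used gave 0.27. In the DLC1-labelled arrays they gave 0.17 to 0.57, where it gave 0.11. The paralog VANGL2 read 0.11 on every array, under the filter. In all, of the 6 kept polarity genes, 2 rose and 1 fell in the DLC1-labelled arrays without TGF-beta, and 1 rose and 1 fell with it. Over all genes kept, 1.63% rose and 2.34% fell without TGF-beta, and 1.46% rose and 1.64% fell with it.

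**Figure D2:**
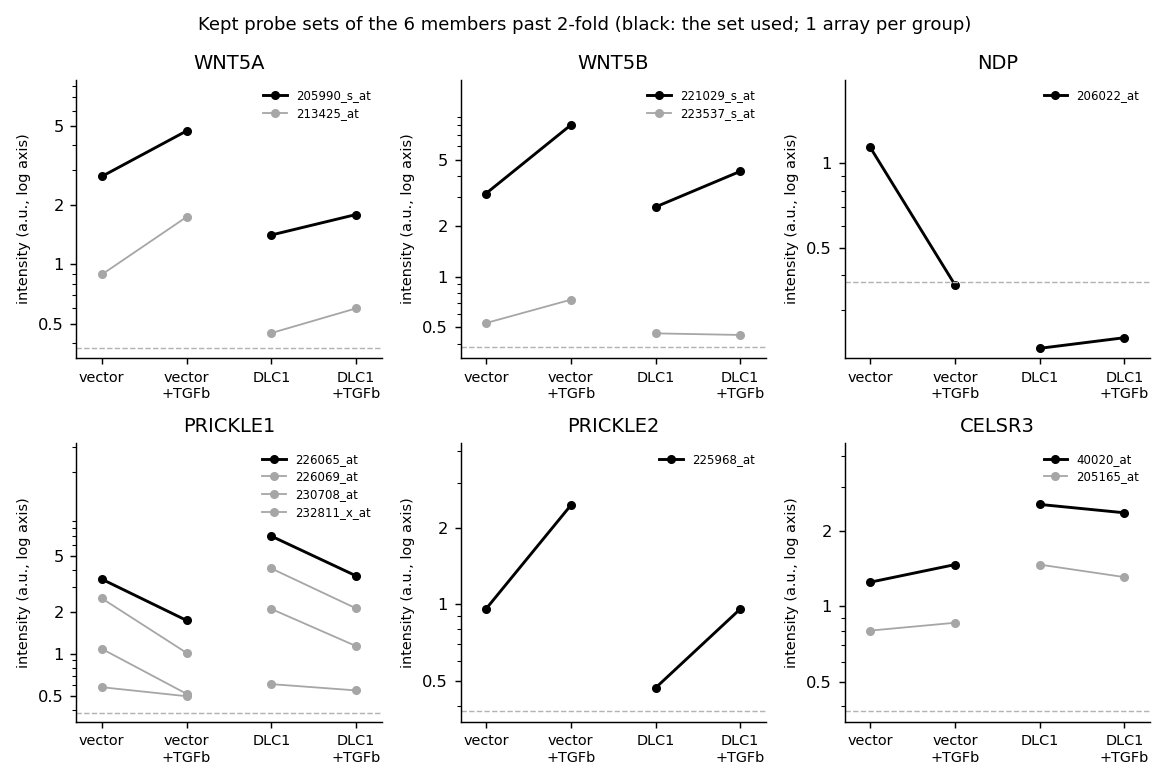
Intensity of every kept probe set of the 6 members past 2-fold, on log axes in arbitrary units; each point is 1 array, lines join the untreated and TGF-beta arrays of the same cells, black marks the set used and the dashed line the filter at 0.38. The lines of PRICKLE1 fall and those of PRICKLE2 rise with TGF-beta in both kinds of cells, and the NDP readings in the DLC1-labelled arrays lie under the filter.

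Among the ligands, WNT5A was lowest in the DLC1-labelled arrays and WNT5B was highest in the control array with TGF-beta. WNT5A read 2.79 in the control array, 4.74 with TGF-beta, 1.41 in the DLC1-labelled array and 1.79 in that group with TGF-beta. Both DLC1-labelled arrays lay below both control arrays. WNT5A gave -0.98 without TGF-beta, just short of 2-fold, and fell by 1.40 with it. Its other set, 213425_at, read 0.89, 1.74, 0.45 and 0.60 in the same order of arrays, and gave -0.98 and -1.54. With TGF-beta, WNT5A gave 0.76 in the control arrays and 0.34 in the DLC1-labelled arrays, and 213425_at gave 0.97 and 0.42.

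WNT5B, the paralog of WNT5A, read 3.14 and 8.04 in the control arrays without and with TGF-beta, and 2.61 and 4.26 in the DLC1-labelled arrays. Its reading was higher with TGF-beta in both kinds of cells. WNT5B rose by 1.36 in the control arrays and gave 0.71 in the DLC1-labelled arrays. Between DLC1 and vector it gave -0.27 without TGF-beta and -0.92 with it. A dimmer set, 223537_s_at, gave 0.46 and -0.03 with TGF-beta and -0.20 and -0.70 between DLC1 and vector. Averaging all 3 sets, of which the third stayed at 0.10 to 0.12, brought the rise in the control arrays to 0.56.

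The windows around the starts of both WNT5 genes are shown, since these paralogs were both higher with TGF-beta in both kinds of cells. Capitals again mark CG pairs.
WNT5A start 1 (chr3:55487257-55487556, minus strand): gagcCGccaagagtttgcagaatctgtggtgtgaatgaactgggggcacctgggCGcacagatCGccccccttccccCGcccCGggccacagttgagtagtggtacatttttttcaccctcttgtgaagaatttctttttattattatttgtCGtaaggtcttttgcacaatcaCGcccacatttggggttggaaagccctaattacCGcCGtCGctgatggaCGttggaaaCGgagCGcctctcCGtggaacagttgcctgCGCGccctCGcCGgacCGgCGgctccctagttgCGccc
WNT5A start 2 (chr3:55481349-55481648, minus strand): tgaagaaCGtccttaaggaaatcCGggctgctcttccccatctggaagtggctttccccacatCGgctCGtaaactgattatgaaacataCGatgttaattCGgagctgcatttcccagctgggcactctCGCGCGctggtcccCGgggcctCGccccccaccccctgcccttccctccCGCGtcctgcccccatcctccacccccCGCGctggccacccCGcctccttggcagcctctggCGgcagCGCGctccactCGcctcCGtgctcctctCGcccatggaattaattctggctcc
WNT5B start 1 (chr12:1616806-1617105, plus strand): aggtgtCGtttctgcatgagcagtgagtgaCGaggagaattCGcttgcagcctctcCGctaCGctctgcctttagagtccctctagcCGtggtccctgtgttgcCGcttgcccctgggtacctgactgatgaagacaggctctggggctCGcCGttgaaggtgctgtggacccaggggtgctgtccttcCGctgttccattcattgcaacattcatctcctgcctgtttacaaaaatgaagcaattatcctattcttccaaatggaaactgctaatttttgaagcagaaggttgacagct
WNT5B start 2 (chr12:1628981-1629280, plus strand): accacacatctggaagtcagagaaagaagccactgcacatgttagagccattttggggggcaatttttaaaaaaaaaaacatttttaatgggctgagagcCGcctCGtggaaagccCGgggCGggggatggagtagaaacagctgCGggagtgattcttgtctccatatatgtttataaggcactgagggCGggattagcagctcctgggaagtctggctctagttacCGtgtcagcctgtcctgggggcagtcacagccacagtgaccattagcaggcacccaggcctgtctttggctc
The WNT5A windows hold 21 and 22 CG pairs, above the median of 14 over all windows, and the WNT5B windows hold 10 and 7, below it. CAGAC occurs 1 time, in the second WNT5B window on the opposite strand, and in none of the other 3. CTTTGA and TGANTCA occur in none of these 4 windows.

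NDP encodes norrin, a cystine-knot protein that is no Wnt by sequence but binds FZD4 and LRP5 or LRP6. It read 1.14 in the control array, 0.37 in the control array with TGF-beta, 0.22 in the DLC1-labelled array and 0.24 in that group with TGF-beta. A single array, untreated vector, was above the filter, and the other 3 were below it. NDP fell by 1.62 with TGF-beta in the control arrays, and by 2.37 between DLC1 and vector without TGF-beta. With readings under 0.38 raised to that value, both differences were -1.58. The other 2 differences, 0.13 with TGF-beta in the DLC1-labelled arrays and -0.62 between DLC1 and vector with TGF-beta, each set a pair of readings under the filter against each other and have no direction. NDP has a single probe set, was kept only through the untreated control array, and its whole pattern rests on that array.

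The other kept ligands differed less. WNT2B read 0.34 and 0.27 in the control arrays and 0.47 and 0.48 in the DLC1-labelled arrays, and gave 0.47 and 0.83 between DLC1 and vector, or 0.31 and 0.34 with its control readings raised to 0.38. Its brightest set is close to the filter, and the other 3 were under it. WNT7B and WNT9A gave 0.44 and 0.49 with TGF-beta in the control arrays and 0.24 and 0.31 in the DLC1-labelled arrays. The other kept set of WNT7B, 217681_at, gave 0.16 and 0.00 in the same order of cells. That of WNT9A, 1553045_at, gave -0.03 and -0.07. WNT6, WNT10B and WNT16 stayed within 0.17 of no difference in each comparison. The ligand genes WNT1, WNT2, WNT4, WNT7A, WNT10A and WNT11 read between 0.08 and 0.36 on every array and were not kept.

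Of the Frizzled receptors, 7 of 9 measured were kept and none passed 2-fold in any of the 4 comparisons, where 6.35% of all genes kept did. FZD1 and FZD7 differed most. FZD1 read 3.63 and 1.98 in the control arrays without and with TGF-beta, and 2.88 and 2.84 in the DLC1-labelled arrays. It was thus lower with TGF-beta in the control arrays, by 0.87 on the log2 scale, and nearly level in the others, at -0.02; 204452_s_at gave -0.55 and 0.05. FZD7 read 6.61, 5.05, 3.44 and 4.14 in the vector, vector with TGF-beta, DLC1 and DLC1 with TGF-beta arrays, so that both DLC1-labelled arrays lay below both control arrays. It gave -0.94 without TGF-beta and -0.29 with it, and 203705_s_at gave -0.80 and -0.07.

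FZD6 read 22.7, 22.9, 19.9 and 22.9 in the same order of arrays, close to level. FZD2 read 15.9, 15.3, 11.5 and 12.8, so that both DLC1-labelled arrays lay below both control arrays. FZD2 gave -0.46 without TGF-beta and -0.26 with it, while its second set, 238129_s_at, gave -0.08 and -0.20. FZD4, the receptor of norrin, read 3.79, 3.68, 5.08 and 4.15 and was highest in the untreated DLC1-labelled array. It gave 0.42 and 0.17, and 224337_s_at gave 0.63 and 0.07. FZD5 gave 0.06 without TGF-beta, and FZD3 had 3 of its 4 readings under the filter. FZD9 and FZD10 read between 0.08 and 0.17.

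The co-receptors were kept for 3 of 5 genes. RYK, a receptor with an inactive kinase domain, read 11.96 and 13.1 in the control arrays and 8.22 and 9.71 in the DLC1-labelled arrays. Both DLC1-labelled arrays were lower. Its differences were -0.54 without TGF-beta and -0.43 with it, and its other 2 sets gave between -0.52 and -0.32, within 2-fold but in the same direction. ROR1, a receptor tyrosine kinase that binds WNT5A, read 6.67, 5.38, 4.77 and 4.67 in the order used above. It gave -0.48 and -0.20, 205805_s_at gave -0.45 and -0.47, and 211057_at gave 0.08 and 0.15. LRP6 read 7.07, 7.36, 7.24 and 7.28 and differed by no more than 0.06 in any comparison. LRP5 read 0.26 to 0.34 and ROR2 0.10 to 0.12, under the filter.

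Among secreted antagonists, DKK1, which blocks LRP6 and is known in bone for restraining osteoblasts, read 111 in the control array, 97.7 with TGF-beta, 84.7 in the DLC1-labelled array and 84.6 in that group with TGF-beta. Both DLC1-labelled arrays were lower, by 0.39 and 0.21 on the log2 scale. DKK3 gave 0.48 in each state in its kept set. SFRP1, a decoy for Wnt ligands, read 0.32 to 0.42, near the filter.

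Inside the cell, DVL1, DVL2 and DVL3, the Dishevelled scaffolds, and AXIN1 stayed within 0.48 of no difference in every comparison. DVL2 read 7.01, 6.84, 6.60 and 6.48, nearly level. DVL1 read 3.40, 4.73, 3.35 and 3.93 and gave 0.48 with TGF-beta in the control arrays and 0.23 in the others. AXIN2, itself a target of beta-catenin, read 0.64, 0.62, 0.48 and 0.54. It gave -0.42 and -0.20 between DLC1 and vector, and 224176_s_at gave -0.49 and -0.23.

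By comparison, the counts were as follows. With TGF-beta in the control arrays, 2 members rose, WNT5B and PRICKLE2, where 1.21% of all genes kept rose, and NDP fell, where 0.693% fell. In the DLC1-labelled arrays, PRICKLE2 rose (0.792% of all genes kept rose) and no member fell (0.107% fell). Without TGF-beta, PRICKLE1 and CELSR3 were higher in the DLC1-labelled array, beside 1.63% of all genes kept, and NDP and PRICKLE2 were lower, beside 2.34%. With TGF-beta, PRICKLE1 was higher, beside 1.46%, and WNT5A and PRICKLE2 were lower, beside 1.64%. At a threshold of 1.5-fold in either direction, counts out of 33 members are set beside percentages of all genes kept, which are on another scale. With TGF-beta, 6 of the 33 passed in the control arrays, beside 6.06%. In the DLC1-labelled arrays 3 of the 33 passed, beside 3.37%, and 3 of the 33 passed in both, beside 2.41%. Between DLC1 and vector 6 of the 33 passed without TGF-beta, beside 14.7%, and 7 of the 33 with it, beside 12.6%. In both states 5 of the 33 passed, beside 8.9%.

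The differences between DLC1 and vector without and with TGF-beta share no array, and PRICKLE1 rose and PRICKLE2 fell in both, where 0.868% of all genes kept rose and 1.13% fell in both. Both set the same kinds of cells against each other, so a call in both states is no replicate of how those cells were made. The TGF-beta differences of both kinds of cells share no array either, and PRICKLE2 rose in both, where 0.624% of all genes did and 0.0609% fell. Each DLC1 difference shares arrays with each TGF-beta difference, so the opposite signs of a gene between these are not separate observations. The median difference of the 33 members was 0.01, 0.11, -0.02 and -0.04 in the order of comparisons above, beside -0.03, -0.01, -0.03 and -0.02 over all genes kept.

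**Figure D3:**
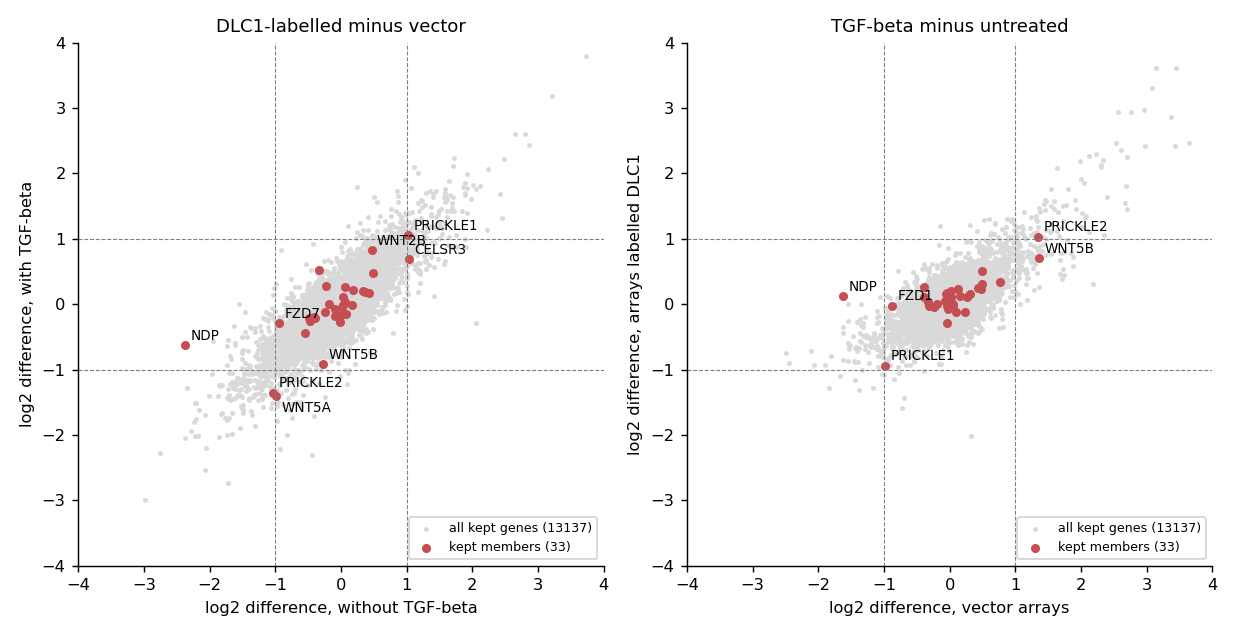
Log2 differences of the 33 kept members (red) and all 13137 kept genes (grey); the left panel sets DLC1 minus vector with TGF-beta against without it, the right panel TGF-beta minus untreated in the DLC1-labelled arrays against the control arrays, and dashed lines mark 2-fold. PRICKLE1 and PRICKLE2 lie in opposite corners of both panels, and NDP lies far from the diagonal in both.

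Subtracting the TGF-beta difference of the control arrays from that of the DLC1-labelled arrays gave a value past 2-fold for NDP alone among the members, at 1.75, or 1.58 with its 3 dim readings raised, beside 0.19% of all genes kept that passed upward and 0.175% downward. The next were FZD1 at 0.85, with 0.59 in 204452_s_at, and FZD7 at 0.66, with 0.73 in 203705_s_at. WNT5B gave -0.65 and WNT5A -0.42. PRICKLE1 gave 0.04, with 0.35 in 226069_at and 0.19 in 230708_at, and PRICKLE2 gave -0.32. Each kept its direction with TGF-beta in both kinds of cells. Of the 7 kept Frizzled genes 6 lay above 0, the dim FZD3 among them, with a median of 0.20, while 53.8% of all genes kept did, with a median of 0.02. That count depends on the probe set used. FZD2 gave 0.20 in its set used but -0.11 in 238129_s_at, and FZD5 gave 0.20 but -0.02 in 206136_at.

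Cells labelled DLC1 and treated with TGF-beta can also be set against untreated vector cells, a comparison of arrays that differ in both respects. PRICKLE2 read 0.96 on both arrays and PRICKLE1 read 3.43 in the control array and 3.62 in the other, a difference of 0.08 on the log2 scale. WNT5A gave -0.64 and WNT5B 0.44. CELSR3 gave 0.92, CELSR1 0.70 and CELSR2 0.50, all higher but within 2-fold, although CELSR3 passed it at 1.03 with arrays centred on housekeeping genes. NDP read 1.14 and 0.24, the latter under the filter, and gave -1.58 with that reading raised to 0.38; it was the only one of the 33 kept members past 2-fold, and no member rose, beside 1.96% of all genes kept that rose and 2.73% that fell. At 1.5-fold 6 of the 33 members passed, beside 16% of all genes kept.

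Other genes of the pathway were read from 4 further lists. Of the 21 kept genes of the beta-catenin destruction complex and its TCF partners, none passed 2-fold in any comparison, where 6.35% of all genes kept did, and the medians ran from -0.16 to 0.07. CTNNB1, the beta-catenin gene, read 76.1, 90.7, 64.6 and 79.9, and gave 0.25 and 0.31 with TGF-beta and -0.24 and -0.18 between DLC1 and vector. LEF1, a DNA-binding partner of beta-catenin, gave -0.76 and -0.65 between DLC1 and vector, within 2-fold.

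Of the 11 kept beta-catenin targets, TNFRSF19, which encodes a receptor of the TNF family, rose by 1.18 with TGF-beta in the control arrays. It gave 0.48 with TGF-beta in the DLC1-labelled arrays. Between DLC1 and vector, both with TGF-beta, it fell by 1.01. Its other kept set, 224090_s_at, gave -0.17, 0.14 and 0.14 in these 3 comparisons. LGR5, a receptor for R-spondins, read 0.40, 0.14, 0.20 and 0.13, with a single reading above the filter. It counted as past 2-fold in 2 comparisons, with TGF-beta in the control arrays and between DLC1 and vector without it, but gave -0.07 in both with dim readings raised to 0.38. The remaining 9 stayed within 2-fold, while 6.35% of all genes kept passed it in at least 1 comparison. The medians of the 11 targets ran from -0.22 to -0.03, beside -0.03 to -0.01 over all genes kept. Of the 10 kept genes of Wnt secretion and extracellular control, which include LGR5, 9 lay below 0 with TGF-beta in the control arrays. The median of the 10 was -0.25, while 54.8% of all genes kept lay below 0, with a median of -0.03. With TGF-beta in the DLC1-labelled arrays 7 lay below 0, with a median of -0.15, beside 52.1% of all genes kept. Between DLC1 and vector, without and with TGF-beta, 6 and 5 did, with medians of -0.06 and 0.00, beside 53.5% and 52%. FRZB, a secreted Wnt decoy, read 0.25, 0.30, 0.49 and 0.60 and reached 2-fold with TGF-beta between DLC1 and vector, but gave 0.66 with its dim readings raised. LGR4 read 6.49, 3.97, 4.51 and 3.29 and gave -0.71 and -0.46 with TGF-beta.

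Of the 19 kept polarity effectors, DAAM1, a formin that binds Dishevelled, moved as PRICKLE2 did. DAAM1 read 3.82 and 7.83 in the control arrays without and with TGF-beta, and 1.32 and 2.98 in the DLC1-labelled arrays. It rose with TGF-beta by 1.04 and 1.17. Between DLC1 and vector it gave -1.53 and -1.39, a fall in both states. Its set 226666_at gave 0.88 and 0.85 with TGF-beta, and -0.88 and -0.92 between DLC1 and vector, and 1555989_at gave 1.09 and 0.55, and -0.34 and -0.89.

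FAT4 and DCHS1 encode large cadherins that bind each other across cells in a second polarity system. FAT4 read 3.37 and 1.42 in the control arrays and 1.85 and 1.11 in the DLC1-labelled arrays. It fell by 1.25 with TGF-beta in the control arrays and gave -0.74 in the others. DCHS1 read 0.23 and 0.26 in the control arrays, under the filter, and 1.29 and 1.21 in the DLC1-labelled arrays. It was kept only through the DLC1-labelled arrays. With the dim readings raised to 0.38, it rose by 1.76 and 1.67 between DLC1 and vector. Its other set, 218892_at, read 0.18 to 0.30 and was not kept. That set gave 0.66 and -0.15, which have no direction under the filter. The remaining 16, including RAC1 and CDC42, stayed within 2-fold, while 6.35% of all genes kept passed it in at least 1 comparison. Of these 16, PTK7 and ROCK2 gave -0.66 and -0.75 between DLC1 and vector without TGF-beta.

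**Figure D4:**
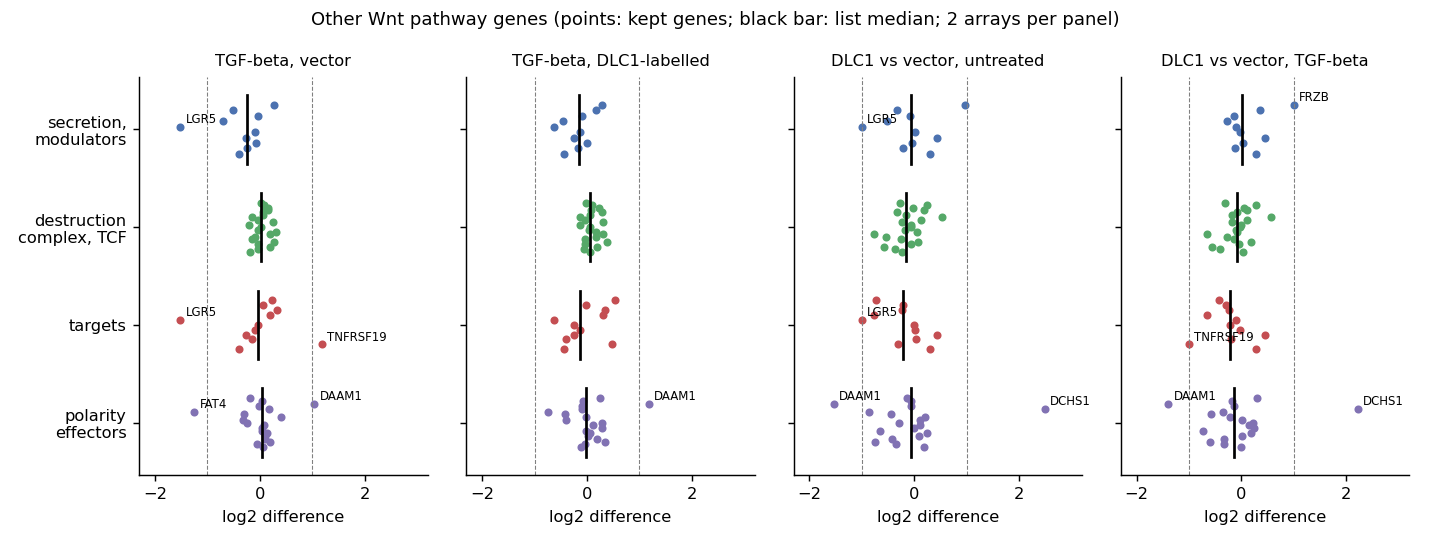
Log2 differences of kept genes in 4 further Wnt lists, 1 panel per comparison of 2 arrays; points are genes, black bars the list medians, dashed lines 2-fold, and genes past it are named. The destruction complex list stays within 2-fold in all 4 panels, while DAAM1, FAT4 and DCHS1 pass it among polarity effectors. DCHS1 was kept only through the DLC1-labelled arrays.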

How the data were processed

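The authors deposited linear intensities with 2 decimals for 54675 probe sets, from 0.05 to 265.58; RMA, without version or settings, is named per the submitters' processing notes. RMA usually gives log2 values, so log2 was taken here. What the scale was divided by is unknown. Equalised arrays hide a change shared by most genes, and rounding makes dim ratios coarse.

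The platform annotation named the probe sets: 41097 have 1 symbol, 1801 several, and 11777 are unnamed here. A gene was its brightest probe set, kept if its highest reading reached 0.38. Members with a 2-fold difference or among the 10 brightest are given with all readings, others by group. The members and all lists were chosen with earlier results of these data known. With 1 array per group there is no test and no p-value. Alternatives were the mean of a gene's probe sets, no filter, a filter at the 75th percentile, dim readings raised to 0.38, centring on housekeeping genes, cyclic loess and a 1.5-fold threshold. Promoter windows, for 33 members, came from RefSeq. Python 3.11.15, numpy 2.4.6, pandas 2.3.3, and limma 3.58.1 in R 4.3.3 were used. The calling step was run on simulated data, with known shifts planted in brighter genes and noise of a chosen size. That run checked the code and gives no error rate for these arrays or for dim genes.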

Additional observations from a re-analysis of the deposited data

Results flagged for a closer look

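NDP stood apart between the kinds of cells in its difference with TGF-beta: it fell by 1.62 in the control arrays and gave 0.13 in the DLC1-labelled arrays, values 1.75 apart. Both DLC1-labelled readings were under the filter, so their difference has no sign. With readings under 0.38 raised to that value, it was 0, against -1.58 in the control arrays. The difference between the kinds of cells was not tested, since each has 1 array per state.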

How the results depend on the processing

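None of the 12 differences of members past 2-fold, the NDP contrast between backgrounds included, reversed under any alternative that gave a value, and of the 32 alternative values that differed from the main value at all, 27 stayed past 2-fold. The other 5 were PRICKLE1 in both states, WNT5B and CELSR3 with averaged probe sets, and PRICKLE2 with centred arrays. Most of the 27 came from centring and cyclic loess, which changed these differences little and read the same probe sets. They therefore say little about other probe sets of a gene. With averaged probe sets, the only changed value still past 2-fold was that of WNT5A between DLC1 and vector with TGF-beta, at -1.47. With the mean of a gene's probe sets, 2 members in place of 4 passed 2-fold between DLC1 and vector without TGF-beta, and 1 in place of 2 in both states. Centring on housekeeping genes also left 1 in both states, since PRICKLE2 gave -0.95 without TGF-beta. With the filter at the 75th percentile, 0 members passed 2-fold in the contrast of the TGF-beta differences, and 0 between treated DLC1-labelled and untreated vector cells, since NDP is not kept there. Centring raised the count of the latter comparison from 1 to 2, and the 1.5-fold threshold to 6. That comparison and its alternatives were added after seeing the data. With a 1.5-fold threshold, 6 and 3 members passed with TGF-beta in the control arrays and in the DLC1-labelled arrays, 3 in both, and 6 and 7 passed between DLC1 and vector without and with TGF-beta, 5 in both. No filter, raised dim readings and cyclic loess kept all counts of members within 1.5 times. No paired analysis was possible because the groups share no replicate numbers beyond their 1 array each, and no array could be left out. An additive model of cells and TGF-beta over the 4 arrays, whose residual would be the contrast of the TGF-beta differences, was not run. NDP, WNT2B, FZD3, SFRP1, DCHS1, FRZB and LGR5 are among the genes with readings under the filter.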
